A study of Homo sapiens with 9 samples.

Results

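The untreated cells of this series were described by the absolute level of every gene in their 3 RNA sequencing libraries, untreated 1, 2 and 3. These are the 3 of 9 libraries whose labels give no treatment. The other 6 libraries came from drug-treated cells and are not described here. The labels give the cells as the HCT 15 line, an established human line named there as a colorectal adenocarcinoma, with a wild-type genotype. The medium was RPMI1640 with 10% fetal bovine serum, at 37 °C in 5% CO2. RNA was taken up in TRIzol, and fragments of about 200 bases were sequenced from the mRNA. The titles of all 9 libraries carry the number 769, which no label explains and the name of the labelled line does not hold. Whether the cells are that line was not tested beyond the markers given here. The titles of the 3 untreated libraries share 1 library code, and no label says that they came from separate cultures, so the spread between them may be technical.

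The libraries held 17138210, 19181092 and 19780645 counts over 60683 annotated genes, of which 19970 were protein-coding. Levels within a gene are given as counts per 1000000 (CPM), scaled by edgeR's TMM factors. Levels of different genes are compared as transcripts per 1000000 (TPM), the count divided by the gene's exon length and scaled to the same sum in every library. Values for single libraries are always in the order untreated 1, 2 and 3, and a value with ± is the mean and SD of the 3 libraries (n = 3). A gene with 0 counts in a library could still have had up to 3 counts by chance, which was 0.176, 0.166 and 0.159 CPM in the 3 libraries and covers counting error only. In a bulk sample, fewer cells that express a gene and less RNA per cell cannot be told apart.

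Epithelial cells keep a record of their tissue in the transcription factors they express. Intestinal epithelium is specified by CDX1, CDX2 and HNF4A, which maintain the brush border and mucus genes. Kidney tubule epithelium is specified by factors such as PAX2 and PAX8, which act upstream of the tubule's transporters. Receptor tyrosine kinases carry growth factor signals across the membrane, solute carriers (SLC) move nutrients and ions, and ABC transporters pump drugs and conjugates out of the cell.

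Of the 19970 protein-coding genes, 11602 (58.1%) had a mean of at least 1 CPM, 8877 at least 10, 1918 at least 100 and 89 at least 1000. At least 1 CPM in each of the 3 libraries was reached by 11245. No count in any of the 3 libraries was found for 5135 protein-coding genes (25.7%). The 10 genes with the most counts took 10.0% ± 0.539 (SD, n = 3) of all counts, the top 100 took 25.2% ± 0.381 and the top 1000 took 57.1% ± 0.921. Genes encoded in the mitochondrial genome held 9.94%, 8.44% and 9.44% of counts. The genes of cytosolic ribosomal proteins held 6.44%, 7.32% and 6.63%.

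Mitochondrial transcripts for the respiratory chain led the protein-coding genes. MT-CO3, a subunit of cytochrome c oxidase, had 16349, 15866 and 16313 CPM and the highest mean level at 45372 TPM, followed by MT-CO2 at 37063 and MT-CO1 at 25345 TPM. The other mitochondrial genes among the 15 highest by TPM were MT-ATP8, MT-ND1, MT-ND4, MT-ND2, MT-ND3, MT-ND4L, MT-CYB and MT-ATP6, from 13461 down to 6349 TPM. MT-ATP8 overlaps MT-ATP6, and MT-ND4L overlaps MT-ND4, so their reads cannot be told apart within the shared bases.

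The highest nuclear genes per length were FTL, TMSB10, GAPDH and RPS12. FTL, the ferritin light chain that stores iron (chr19:48965309-48966879), had 3029.8, 4407 and 3854 CPM and 9378 ± 1388 TPM (SD, n = 3). TMSB10, a thymosin that binds actin monomers, had 1297, 1550.3 and 1279.6 CPM and 6087 ± 539 TPM. GAPDH, the glycolytic dehydrogenase (chr12:6534512-6538374), had 5753, 6920.1 and 8244 CPM and 5124 ± 793 TPM. The CPM of GAPDH was lowest in untreated 1 and highest in untreated 3, with a ratio of 1.43 between them, and its coefficient of variation of 17.9% was above the median of 10.7% for protein-coding genes at 10 CPM or more. RPS12, of the small ribosomal subunit, had 4200.3 ± 335 TPM.

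By counts alone, without length, longer genes of translation and the cytoskeleton joined these. EEF1A1, an elongation factor of translation, had 6371 ± 546 CPM, and EEF2, another, had 3691 ± 175 CPM. VIM, the vimentin of mesenchymal intermediate filaments (chr10:17228241-17237593), had 4955, 5814 and 5483 CPM, the highest protein-coding gene after GAPDH, EEF1A1 and 6 mitochondrial genes. The spread of VIM between the libraries was small, with a ratio of 1.17. ACTG1, cytoplasmic gamma actin, had 3096 ± 368 CPM, FLNA, the filamin that cross-links actin, 2780.2 ± 169 CPM, and RPL4, of the large ribosomal subunit, 3002 ± 467 CPM. Of the 15 genes highest by CPM, 9 were also among the 15 highest by TPM.

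**Figure D1:**
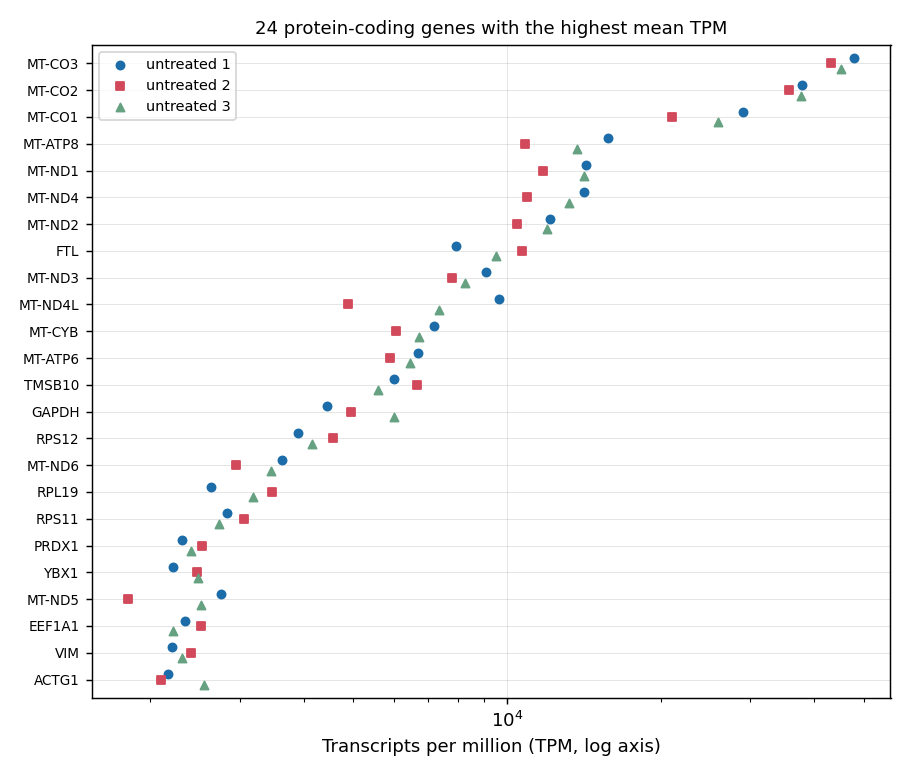
Level in TPM (log axis) of the 24 protein-coding genes with the highest mean TPM, 1 point for each untreated library. The mitochondrial genes lie lowest in untreated 2 in each row, while FTL, at 9378 TPM on average, is the highest nuclear gene.

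Among genes not annotated as protein-coding, MT-RNR2, the large mitochondrial ribosomal RNA, was highest at 17872, 16808 and 17459.9 CPM. It was followed by EEF1A1P5, a processed copy of EEF1A1, at 8111, 9112 and 8792 CPM. The next were EEF1A1P6 at 3492 ± 353, AC008038.1 at 2201 ± 218 and RPL7P9 at 2117 ± 258 CPM. EEF1A1P5 thus had more counts than EEF1A1 itself, and RPL7P9 had more than its parent RPL7, at 282 ± 38.1 CPM. Processed pseudogenes together held 6.54% ± 0.451 of counts. Reads of a gene and of its near-identical copies cannot be told apart in such counts, so the levels of EEF1A1, RPL7 and other genes with copies are uncertain. Long non-coding RNAs held 1.11%, 1.11% and 1.10% of counts. The highest were SNHG29 at 838 ± 90.3 CPM and NORAD, which sequesters Pumilio proteins, at 454 ± 43.8 CPM.

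A few genes that dividing cells need were at or near 0. A list of 307 genes that dividing cells need was drawn up after the levels had been seen: cytosolic and mitochondrial ribosomal proteins, proteasome, RNA polymerase II, aminoacyl-tRNA synthetases, chaperonin, initiation factors, core spliceosome proteins, complex I and MCM helicase. Of these, 300 had at least 1 CPM, with a median of 139 CPM over the list. The other 7 were RPS9, PSMC4, VARS1, NDUFA3, NDUFA6, MRPS12 and MRPS18B. RPS9, a protein of every small ribosomal subunit (chr19:54200809-54249003), had 0.176, 0.553 and 0.265 CPM, while the median of the cytosolic ribosomal protein genes was 834 CPM. MRPS18B, of the mitochondrial ribosome (chr6:30617840-30626395), had 0 counts in all 3 libraries.

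Of these 7 genes, RPS9, NDUFA3, PSMC4 and MRPS12 lie on chromosome 19 and NDUFA6 on chromosome 22. VARS1 and MRPS18B lie in 1 stretch of chromosome 6, the HLA region that encodes the antigen-presenting proteins. From the start of TRIM27 to the end of KIFC1 (chr6:28903002-33409896), 94 of 174 protein-coding genes (54.0%) had 0 counts, against 25.5% of the other protein-coding genes. The comparison was not matched for the kinds of gene that lie in the stretch. TUBB, a widely expressed beta-tubulin, LSM2, a splicing factor, and NELFE, a pausing factor of RNA polymerase II, lie there and were each listed at 0 in the 3 libraries. They were picked out after their values were seen. A gene described below as listed at 0 is a gene without counts in these files. Whether the mapping or counting of reads set any one of these zeros was not tested. Nor was it tested for low levels above 0, such as that of RPS9. Of the lineage factors, receptors and transporters in the lists used below, 1 of 154, 3 of 290 and 4 of 231 lie in the HLA stretch. No such count is given here for chromosome 19, so low levels of this kind may touch more of the listed genes.

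Among lineage factors PAX8 was high, the other kidney factors ranged from 0 to below 100 CPM, and the defining intestinal factors were listed at 0. PAX8, the paired-box factor of the kidney tubule and thyroid (chr2:113215997-113278921), had 346, 287 and 247 CPM. PAX2, the early kidney factor (chr10:100735603-100829944), had 18, 7.68 and 9.76 CPM. Both were highest in untreated 1. Of 24 lineage factors at 10 CPM or more, PAX2 alone (4.17%) had a highest library over 2-fold above its lowest, with a ratio of 2.34. Among all protein-coding genes at 10 CPM or more the share was 7.12%. Of the 30 kidney and urogenital factors 20 (66.7%) had at least 1 CPM, beside 58.1% of all protein-coding genes. Of these 20, 11 were under 10 CPM, 8 had 10 to 100 CPM and PAX8 alone had 100 CPM or more. HNF4A, EMX2, FOXI1, TFAP2B and HMX2 had 0 counts in every library, and another 5 were under 1 CPM. The median of the list was 3.62 CPM. Per length PAX8 led at 87.5 TPM, and IRX3, a nephron patterning factor, was at 32.6, HNF4G at 13.2 and FOXC1 at 11.6 TPM.

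CDX2 (chr13:27960918-27969315), CDX1 and HNF4A had 0 counts in each library, as did GATA4, GATA5, ATOH1, NEUROG3, ASCL2 and ISX of the 23 intestinal factors. Of that list 12 (52.2%) had at least 1 CPM, beside 58.1% of all protein-coding genes. At the head of these were genes that other epithelia share. ELF3, an epithelial ETS factor, had 281, 256 and 228 CPM. KLF4, which marks differentiating epithelium, had 89.8, 48.8 and 55.4 CPM. Both were highest in untreated 1. KLF5 had 26.8 ± 2.14 CPM, HES1, a Notch target, 19.9 ± 4.23, and GATA6 22.1 ± 1.42 CPM. SOX9, a factor of crypt progenitors and of many other epithelia, had 7.65 ± 1.64 CPM.

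Factors of other lineages were few. Of 18 liver and pancreas factors 7 (38.9%) had at least 1 CPM, beside 58.1% of all protein-coding genes. CEBPA was highest at 8.48 TPM, and PDX1, PTF1A and PROX1 were listed at 0. Only 1 of 14 factors of lung, thyroid and stratified epithelium (7.14%) had at least 1 CPM, beside 58.1% of all protein-coding genes. This was KLF2, at 3.15 ± 1.57 CPM, and NKX2-1, SOX2, GRHL2 and EHF were listed at 0. MITF, the factor of melanocytes that other cells also use, had 56.8, 40.4 and 50.3 CPM, and SOX10, which defines neural crest, was listed at 0. Among 18 blood factors TCF3 had 108 ± 12.1 and RUNX1 63.1 ± 16.9 CPM, both of them genes that epithelia express too, and SPI1, TAL1, IKZF1 and PAX5 were listed at 0. FOXC2, a mesenchymal forkhead factor, had 111, 134 and 129 CPM. ZEB1, which represses epithelial genes, had 17 ± 2.15 CPM, and TWIST1, PRRX1 and MYOD1 were listed at 0. Among 11 pluripotency and germline factors 1 (9.09%) had at least 1 CPM, beside 58.1% of all protein-coding genes. It was POU5F1, at 3.43 ± 0.623 CPM, and this gene has pseudogene copies. NANOG and LIN28A were listed at 0. Over all 154 lineage factors 53 (34.4%) had at least 1 CPM and 72 (46.8%) had 0 counts, beside 11602 (58.1%) and 5135 (25.7%) of 19970 protein-coding genes.

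HOX genes, which record position along the body axis, were largely without counts. Of 39 HOX genes 23 (59.0%) had 0 counts, beside 25.7% of all protein-coding genes. They included all 10 of the HOXB cluster and 8 of 9 of the HOXD cluster. At least 1 CPM was reached by 7 of 11 HOXA, 0 of 10 HOXB, 2 of 9 HOXC and 1 of 9 HOXD genes. Of all 39, 10 (25.6%) reached it, beside 58.1% of all protein-coding genes. HOXA9 was highest at 16.6, 15.6 and 16.4 CPM, followed per length by HOXC9 at 11.6 and HOXA10 at 5.34 TPM. The 3 libraries of HOXA9 differed by a ratio of 1.06.

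The labelled tissue was checked against its markers. Of 20 markers of colorectal epithelium 12 (60%) had 0 counts in every library, beside 25.7% of all protein-coding genes. Among the 12 were CDH1 (E-cadherin), KRT20, CEACAM5, MUC2, PHGR1 and FABP1. At least 1 CPM was reached by 5 (25%), beside 58.1% of all protein-coding genes. KRT8, with KRT18 the keratin pair of simple epithelia in general, had 806, 1134 and 812 CPM. KRT18 had 325, 427 and 363 CPM. Both were highest in untreated 2. Of the 5 at 1 CPM or more, 2 were between 1 and 10 CPM and 1 between 10 and 100 CPM. EPCAM, an epithelial adhesion molecule, had 1.23, 1.38 and 1.17 CPM. VIL1, the villin of brush borders, had 0.176, 6.91 and 7.27 CPM, so untreated 1 stood near the limit of detection and the other libraries well above it. The list's summed level was 1145, 1577 and 1195 CPM, nearly all of it KRT8 and KRT18. CDX1, CDX2 and KRT20, which mark intestinal epithelium, and CDH1, the cadherin of epithelia in general, were thus without counts in cells whose label names a colorectal tumour.

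Of 24 markers of kidney tubule epithelium 14 (58.3%) had at least 1 CPM and 6 (25%) had 0 counts. These are near the shares over all protein-coding genes, 58.1% and 25.7%. The summed level was 1269, 1017 and 831 CPM. This sum holds GGT1 under ENSG00000100031 and not under ENSG00000286070, rows that vary in opposite ways between libraries, as given below. Together those rows had 122, 99.8 and 101 CPM, so part of the differences between the sums lies in that split. AQP1, the water channel of the proximal tubule (chr7:30911694-30925517), had 249.9, 163 and 124 CPM. SLC3A1, the heavy subunit of the cystine transporter (chr2:44275458-44321494), had 341, 253 and 217 CPM. Both were highest in untreated 1 and lowest in untreated 3. HAVCR1, a tubule injury marker, had 95.5, 51.7 and 68.3 CPM. SLC17A3, a urate and phosphate carrier, had 65.8, 58.3 and 65.8 CPM, close in the 3 libraries. LRP2, the endocytic receptor megalin, was low at 6.92, 2.05 and 1.54 CPM, and CUBN, its partner cubilin, at 3.64, 5.86 and 5.25 CPM. The 6 at 0 were SLC22A6 and SLC22A8, organic anion transporters of the proximal tubule, SLC12A1 and UMOD of the thick ascending limb, AQP2 of the collecting duct, and CA9, a target of hypoxia signalling.

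Markers of other cell types were mostly at or near 0. Of 15 immune markers 8 (53.3%) were listed at 0, beside 25.7% of all protein-coding genes. Among the 8 were PTPRC, CD3D, CD3E, LYZ, NKG7 and HBB. CD68, which cells outside the immune system can also express, had 33.7 ± 12.4 CPM. Of 14 fibroblast and endothelial markers COL3A1, DCN, LUM, FAP, PDGFRA, VWF, CDH5 and KDR were listed at 0. COL1A1, a fibrillar collagen, had 6.04, 43 and 40.5 CPM, lowest in untreated 1 with a ratio of 7.12. Of 10 hepatocyte markers FGB, fibrinogen beta, had 64.1, 119 and 102 CPM and SERPINA1 23 ± 3.28 CPM, and APOA1, APOB and TTR were listed at 0. Of 12 neural and neuroendocrine markers NEFL, a neurofilament, had 144 ± 11.9 CPM and ENO2 21.7 ± 4.71 CPM. TUBB3, a neuronal beta-tubulin, had 168, 146 and 23.8 CPM, with untreated 3 far below both others. CHGA and NCAM1 were listed at 0. None of 11 markers of lung, breast, prostate and squamous epithelium had at least 1 CPM, beside 58.1% of all protein-coding genes. Of 33 cancer-testis antigens matched, 32 (97.0%) were listed at 0, beside 25.7% of all protein-coding genes. DDX43, an RNA helicase, had 9.85 ± 0.963 CPM.

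**Figure D2:**
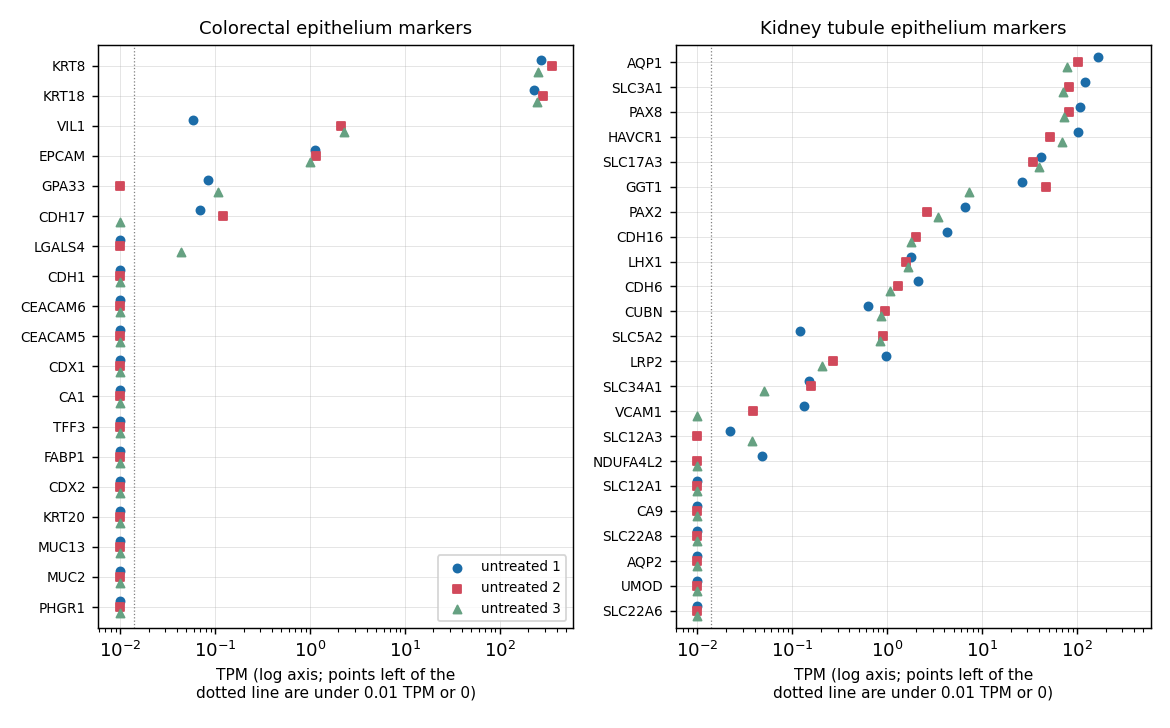
Level in TPM (log axis) of the markers of colorectal epithelium (left) and kidney tubule epithelium (right) reported here, in each untreated library. On the left KRT8 and KRT18 stand far above a column of genes at 0, and on the right AQP1, SLC3A1, PAX8 and HAVCR1 head a gradual decline.

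The promoters of these genes are shown for the nuclear protein-coding gene with the highest CPM, for PAX8 as a lineage factor that was present, and for CDX2 and KRT20 as intestinal genes at 0. Each line gives the 120 bases before the start site, 5′ to 3′ on the gene's strand, from RefSeq on GRCh38.p14, with each CpG in capitals. CpG pairs are the sites of DNA methylation, and promoters of widely expressed genes are rich in them.
GAPDH: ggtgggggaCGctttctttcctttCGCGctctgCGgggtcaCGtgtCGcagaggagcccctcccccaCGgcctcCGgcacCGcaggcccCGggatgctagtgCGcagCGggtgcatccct
PAX8: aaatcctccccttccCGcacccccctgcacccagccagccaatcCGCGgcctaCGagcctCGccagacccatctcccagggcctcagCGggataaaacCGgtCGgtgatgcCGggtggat
CDX2: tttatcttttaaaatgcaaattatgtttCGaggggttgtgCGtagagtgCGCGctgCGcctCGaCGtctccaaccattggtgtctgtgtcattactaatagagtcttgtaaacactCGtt
KRT20: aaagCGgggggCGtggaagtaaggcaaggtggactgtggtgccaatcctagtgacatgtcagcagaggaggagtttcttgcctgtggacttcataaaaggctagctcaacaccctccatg

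These stretches are chr12:6535144-6535263 on the plus strand and chr2:113278922-113279041, chr13:27969316-27969435 and chr17:40885243-40885362 on the minus strand. Those of PAX8, CDX2 and KRT20 lie directly outside the gene's locus as the files give it, and that of GAPDH lies inside its longer locus. They held 12, 9, 8 and 2 CpG pairs. Over the whole 300-base window, from 250 bases before to 50 after the start, GAPDH held 28, PAX8 13, CDX2 16 and KRT20 2. CDX2, at 0 counts, thus had more CpG pairs in its window than PAX8, at 294 CPM.

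Over 11170 protein-coding genes with 1 listed promoter, CpG content was higher at higher levels. The median number of CpG pairs per 300-base window was 6 for the 2959 genes with 0 counts, 14 for genes under 1 CPM, 24 from 1 to 10 CPM, 28 from 10 to 100 CPM and 29 at 100 CPM or more, against 23 over all windows. Windows with 20 or more pairs made up 84.0% of genes at 100 CPM or more and 23.2% of genes at 0 counts. The letters TATAAA, searched on both strands at any place in the window, were in 21.7% of windows of genes at 0 counts, 3.90% from 10 to 100 CPM, 6.49% at 100 CPM or more and 10.5% of all. A match of these letters describes the window and is not a tested site. With genes binned by TPM at the same limits the CpG medians were 6, 17, 27, 28 and 28.

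Vimentin and N-cadherin, which mesenchymal cells use, were expressed beside epithelial keratins. VIM was at 2304 TPM, above KRT80, an epithelial keratin, at 451, KRT8 at 292 and KRT18 at 253 TPM. KRT80 had 727, 1244 and 724 CPM. KRT7, of ductal epithelia, had 89.4, 192 and 142 CPM. Both were highest in untreated 2. CDH2, N-cadherin (chr18:27950966-28177130), had 289, 248 and 268 CPM where CDH1 (chr16:68737292-68835541) was listed at 0 in each library. DSG2, a desmosomal cadherin, had 515 ± 34.4 CPM. Of 33 cadherins 17 (51.5%) had 0 counts, beside 25.7% of all protein-coding genes.

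Claudins seal and tune tight junctions. CLDN16, which admits magnesium and calcium in the kidney, had 447, 434 and 477 CPM. CLDN1, a sealing claudin, had 424, 455 and 498 CPM. Both were close in the 3 libraries. CLDN2, a pore-forming claudin of the proximal tubule and gut (chrX:106900164-106930861), had 0.0587, 147 and 137 CPM, which was 1 count in untreated 1. CLDN4, another sealing claudin (chr7:73799542-73832693), had 164, 4.09 and 2.55 CPM. The 2 genes were opposite, with CLDN4 high in untreated 1 and CLDN2 high in the other libraries. Among integrins, the receptors for matrix, ITGB1 led at 361 TPM, followed by ITGA3 at 198, ITGAV at 133 and ITGB5 at 76.5 TPM.

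Of 58 receptor tyrosine kinases 6 (10.3%) had 100 CPM or more, beside 9.60% of all protein-coding genes. AXL, the receptor of GAS6 (chr19:41219223-41261766), had 507, 638 and 647 CPM and 254 ± 24.4 TPM, the highest of 58. MET, the hepatocyte growth factor receptor (chr7:116672196-116798386), had 288, 258 and 270.0 CPM. EGFR, the epidermal growth factor receptor (chr7:55019017-55211628), had 281, 265 and 297 CPM. AXL was lowest in untreated 1, and MET and EGFR varied little. Per length EPHA2, an ephrin receptor, at 87.4 ± 2.31 and MET at 85.1 ± 8.16 TPM did not differ beyond their spread, and EGFR at 49.4 ± 3.68 and EPHB2 at 40.7 ± 1.79 TPM were next. At least 1 CPM was reached by 24 of the 58 (41.4%), beside 58.1% of all protein-coding genes, and 17 (29.3%) had 0 counts, beside 25.7%, among them KIT, KDR, FLT1, FLT4, PDGFRA, RET, ALK and ERBB4.

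Of 12 kinases listed as targets that sorafenib is known to inhibit, 5 (41.7%) had at least 1 CPM, beside 58.1% of all protein-coding genes. Of these 5, 3 had 10 to 100 CPM, and the summed level of all 12 was 306, 271 and 281 CPM. ARAF, a kinase of the MAP kinase cascade, had 57.7, 65.3 and 60.5 CPM. BRAF had 16.7 ± 6.17 CPM, lowest in untreated 2 with a ratio of 2.14 between highest and lowest. FGFR1 had 113 ± 18.1 CPM and PDGFRB 5.97 ± 0.85 CPM. FLT1, KDR, FLT4, KIT and RET had 0 counts.

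Nuclear receptors are transcription factors switched by lipids and hormones. NR2F6, an orphan receptor, was highest at 179.6, 181 and 158 CPM and 142 TPM. It was followed per length by ESRRA at 42.1, RXRA, the common dimer partner, at 27.5, NR1H2 at 26.5 and RARA at 22.6 TPM. Of 48 nuclear receptors 10 (20.8%) were listed at 0, beside 25.7% of all protein-coding genes. PGR, the progesterone receptor, and NR1I2, the xenobiotic sensor, were among these 10. The TGF-beta superfamily receptors had 11 of 14 (78.6%) at 1 CPM or more, beside 58.1% of all protein-coding genes. Of these, ACVR1 had 75.9 ± 0.11 and TGFBR2 64.4 ± 6.59 CPM. TGFBR1, the type I partner of TGFBR2, had 15.7, 74.1 and 20.1 CPM, high in untreated 2 with a ratio of 4.71 between highest and lowest. Of Wnt and Notch receptors FZD6 had 89.7 ± 15.6 CPM and NOTCH1 143 ± 25.4 CPM. LGR4, an R-spondin receptor, had 137, 68.3 and 77.9 CPM, highest in untreated 1, and LGR5, which marks intestinal stem cells, was listed at 0.

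IL20RB, a subunit of the receptors of IL-20 family cytokines, led 41 cytokine and interferon receptors at 181, 218 and 203 CPM and 178 TPM. The next, IL6ST, the shared gp130 subunit, had 20.6 TPM. IL20RA, a partner of IL20RB, was listed at 0. In the TNF receptor family TNFRSF12A, the TWEAK receptor, had 188, 227 and 207 CPM, and TNFRSF10B, a TRAIL death receptor, 166 ± 10.4 CPM. Of 78 G protein-coupled receptors 31 (39.7%) had 0 counts and 25 (32.1%) at least 1 CPM, beside 25.7% and 58.1% of all protein-coding genes. Orphan and adhesion types were highest. GPRC5C, an orphan receptor, had 305, 227 and 115 CPM, highest in untreated 1. ADGRG1, an adhesion receptor, had 217, 124 and 296 CPM, lowest in untreated 2. ADGRE5 at 141 ± 4.65 and GPRC5A at 195 ± 8.81 CPM were steady. EDNRA, EDNRB, AGTR1, AVPR2 and CASR, hormone and calcium receptors of the kidney and its vessels, were listed at 0.

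A few nutrient carriers had high levels. SLC2A1, the basal glucose transporter (chr1:42925375-42958868), had 206, 445 and 446 CPM, with untreated 1 far below both others. Of 16 hexose transporters only SLC2A1 (6.25%) had 10 CPM or more, beside 44.5% of all protein-coding genes. SLC2A3 and SLC2A5 were listed at 0, and SLC2A2, of liver and proximal tubule, had 7.14 ± 3.33 CPM. Among 33 amino acid transporters 20 (60.6%) had at least 1 CPM, near the 58.1% of all protein-coding genes. SLC7A5, the large neutral amino acid exchanger (chr16:87830023-87869507), had 763, 969.9 and 1046 CPM. SLC3A2, its heavy chain, had 244, 335 and 342 CPM. Both were lowest in untreated 1. SLC1A5 and SLC38A1 carry glutamine, and they had 578 ± 61.8 and 749 ± 45.3 CPM. The TPM order was SLC7A5 at 427 ± 54.6, SLC1A5 at 381 ± 26.8, SLC38A1 at 164 ± 9.15 and SLC3A2 at 129.8 ± 18.8, and the first pair overlapped in their spread.

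Among lactate carriers the accessory chain BSG had 605, 712 and 581 CPM. SLC16A1 and SLC16A3, the lactate transporters it escorts, had 1.86 ± 0.423 and 9.31 ± 1.52 CPM. SLC16A4, whose substrate is less well defined, was the highest carrier of that family at 127, 100.2 and 117 CPM. ATP1B1, a beta subunit of the sodium pump, had 224, 202 and 195 CPM. Of metal transporters SLC39A6, a zinc importer, led per length at 65.8 TPM. At least 1 CPM was reached by 22 of 27 (81.5%), beside 58.1% of all protein-coding genes. TFRC, the transferrin receptor, had 112 ± 7.28 CPM, and SLC40A1, the iron exporter, was listed at 0. SLC29A1, the equilibrative nucleoside transporter, had 94.7, 169.7 and 164 CPM, lower in untreated 1. Of the 12 aquaporins AQP1 and AQP3 were above 10 CPM, AQP3 at 22.1 ± 0.683. Another 6 (50%) were listed at 0, beside 25.7% of all protein-coding genes.

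Of 39 organic ion carriers 15 (38.5%) had 1 CPM or more, beside 54.5% of all 231 listed transporters and 58.1% of all protein-coding genes. SLC17A1, a urate and phosphate carrier of the proximal tubule, had 80.0, 61.1 and 67.4 CPM, and with SLC17A3 it headed the list, at 75 and 38.8 TPM. SLC22A3, an organic cation transporter (chr6:160348378-160452577), had 19.9, 23.1 and 22.1 CPM. SLC22A2, the kidney's basolateral cation transporter (chr6:160171061-160277638), had 0.0587, 0 and 0.106 CPM, which is under the limit that 0 counts allow. SLC31A1, the copper transporter (chr9:113221544-113264492), had 88.9, 88.5 and 97.3 CPM, close in the 3 libraries. SLC22A2 and SLC31A1 are known carriers of platinum drugs.

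Of 48 ABC genes, most of which encode efflux pumps, 27 (56.25%) had at least 1 CPM, near the 58.1% of all protein-coding genes. ABCC3, which exports conjugates, had 327, 234 and 232 CPM. ABCC2, its apical counterpart (chr10:99782640-99852594), had 181, 119 and 142 CPM. ABCB1, the P-glycoprotein (chr7:87503017-87713323), had 145, 78 and 83 CPM. These 3 and ABCC4, at 205 ± 35.4 CPM, were highest in untreated 1. ABCG2 was under the limit that 0 counts allow, at 0.0587, 0 and 0 CPM. Among other genes that handle platinum, MT2A, a metallothionein, had 354, 786 and 699.6 CPM, with untreated 1 lower than both others. GSTP1, the glutathione transferase of most epithelia, was listed at 0. ERCC1, of nucleotide excision repair, had 98.6 ± 6.72 CPM, and TYMS, the thymidylate synthase, 204 ± 19.1 CPM.

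**Figure D3:**
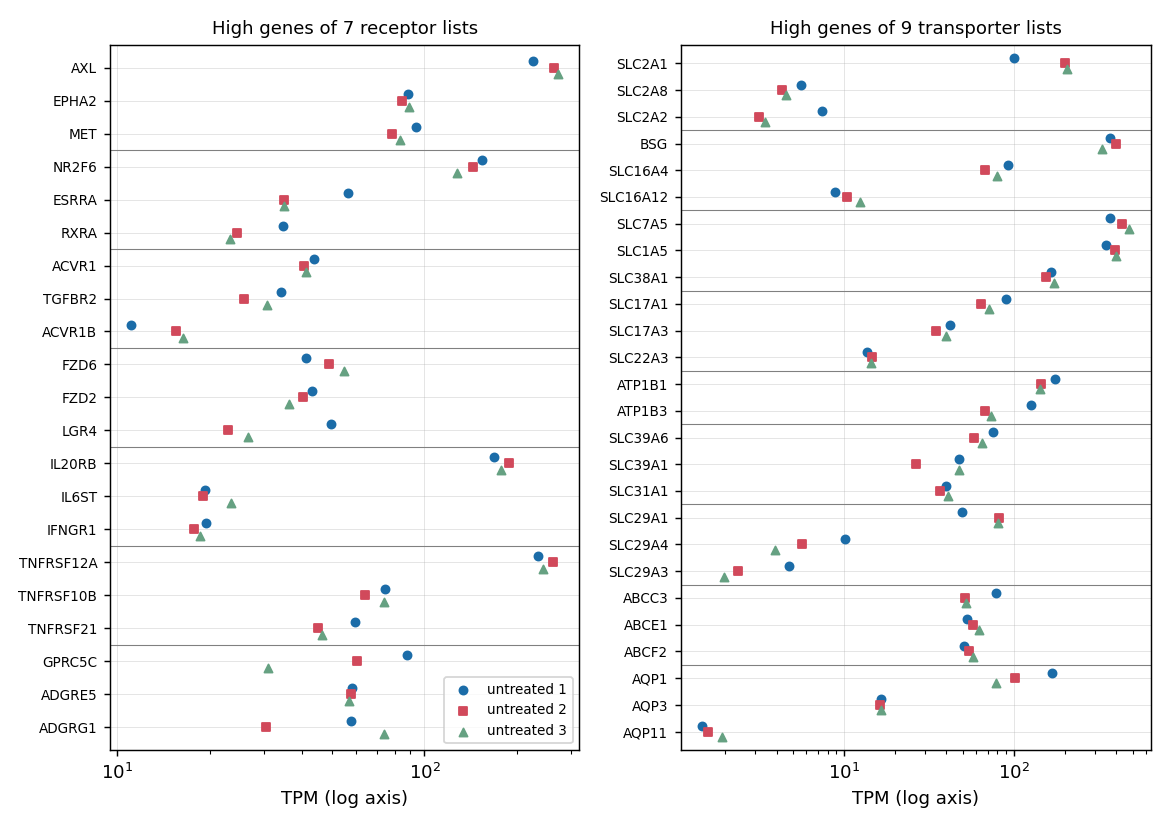
Level in TPM (log axis) of up to 3 of the highest genes, at 1 CPM or more, of each of 7 receptor lists (left) and 9 transporter lists (right), 1 point for each untreated library and lines between lists. AXL and TNFRSF12A head the receptors and SLC7A5, SLC1A5 and BSG the transporters, and untreated 1 stands apart for SLC2A1.

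Tumour genes of kidney and colon were nearly all present, with 36 of 38 (94.7%) at 1 CPM or more, beside 58.1% of all protein-coding genes. CCND1, the cyclin of G1 entry, had 454, 592 and 568 CPM. MYC, a growth factor-responsive transcription factor, had 36.7 ± 6.57 CPM. VHL, the ubiquitin ligase that degrades HIF (chr3:10141778-10153667), had 0, 0.332 and 0.637 CPM, under 1 CPM in each library. HIF1A and EPAS1, which encode HIF alpha subunits, were low at 4.52 ± 0.691 and 3.89 ± 0.355 CPM. Whether the counting of reads set the low levels of VHL, HIF1A and EPAS1 was not tested. FH, of the citric acid cycle, had 186 ± 24.5 CPM and CTNNB1, beta-catenin, 251 ± 17 CPM.

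Of 85 secreted proteins and hormones 43 (50.6%) had at least 1 CPM, beside 58.1% of all protein-coding genes. SPP1, osteopontin, had 466, 207 and 253 CPM, highest in untreated 1. CGB5, a chorionic gonadotropin beta subunit with near-identical neighbours, had 48.2, 236 and 189.6 CPM, lowest in untreated 1, and CGA, the shared alpha subunit, was listed at 0. GDF15 had 259 ± 20.6 CPM, AREG, an EGFR ligand, 172 ± 32.2 CPM, and PDGFB 319.9 ± 24.9 CPM. HGF, the ligand of MET, was listed at 0.

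The 3 libraries were close for most genes and far apart for some. Among the 8877 protein-coding genes at 10 CPM or more, the median ratio of the highest to the lowest library was 1.23 and the median coefficient of variation 10.7%, where counting error alone would give about 3.55%. The ratio exceeded 1.5 in 1588 genes (17.9%), 2 in 632 (7.12%), 4 in 151 (1.70%) and 10 in 39. The share over 2-fold was 9.59% from 10 to 30 CPM and 4.30% from 100 to 300 CPM. edgeR's common biological coefficient of variation was 0.221, estimated over 14395 genes of all types with scaling over the 3 untreated libraries. That set includes genes under 10 CPM, so the value is not on the same basis as the 10.7%. Pearson's r of log2(CPM + 0.5) was taken across the 8877 genes, which are not independent replicates. It was 0.940 between untreated 1 and 2, 0.947 between 1 and 3 and 0.958 between 2 and 3.

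Each library held part of the wide ratios. Of the 632 genes over 2-fold, untreated 1 lay farthest from the middle library in 243 (38.4%), untreated 2 in 216 and untreated 3 in 173. Of the 632, the library that lay apart was the low one in 133, 143 and 114 genes, and the high one in 110, 73 and 59. Among 92 receptors at 10 CPM or more 12 exceeded 2-fold (13.0%), and among 83 transporters 7 did (8.43%), beside 7.12% of all protein-coding genes. Among the 7 transporters were AQP1, SLC29A4, SLC2A1, SLC30A9, SLC4A4 and SLC7A6.

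The steadiest genes at 100 CPM or more were HNRNPUL1, an RNA-binding protein, at 441, 438 and 438 CPM, C5orf15 at 163, 165 and 164, IGBP1 at 106, 106 and 105, COASY, of coenzyme A synthesis, at 104, 102 and 103 and CNN3, a calponin, at 106, 105 and 106 CPM. Their coefficients of variation were 0.396% to 0.628%. They are the lowest of 1918 genes and were chosen for their small spread.

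**Figure D4:**
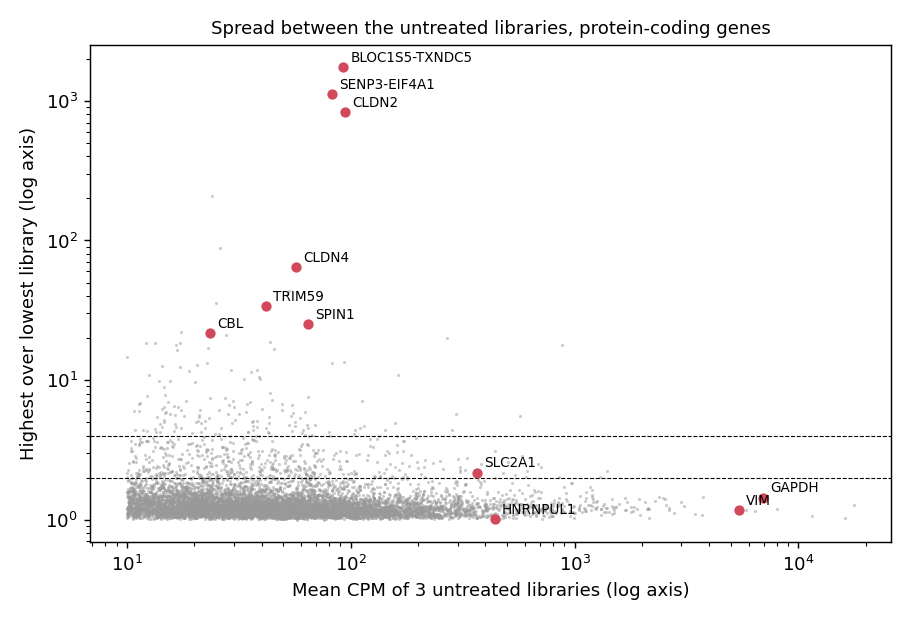
Ratio of the highest to the lowest untreated library (log axis, a library under 3 counts set to 3 counts) against mean CPM (log axis) for the protein-coding genes at 10 CPM or more, with some genes named and dashed lines at 2-fold and 4-fold. Most genes lie under 2-fold, and CLDN2 and a pair of readthrough genes lie at the top.

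The 12 widest ratios fell into 2 kinds. In the first, the gene overlapped another on the same strand, or a row of the same name, and the sum over the overlapping genes varied less. BLOC1S5-TXNDC5, a readthrough of 2 neighbours (chr6:7881522-8064364), had 277, 0 and 0 CPM, and TXNDC5, a disulfide isomerase inside it, had 88.6, 368 and 392 CPM. Their sums were 366, 368 and 392 CPM. SENP3-EIF4A1 had 178, 69.3 and 0 CPM where EIF4A1, the helicase of translation initiation, had 247, 429 and 456 CPM, and the sums were 425, 498 and 456 CPM. The 2 rows named GGT1, a gamma-glutamyltransferase of the kidney brush border, had 50.8, 97.9 and 14.8 CPM (ENSG00000100031) and 70.9, 1.99 and 86.6 CPM (ENSG00000286070), and together 122, 99.8 and 101 CPM. ISY1-RAB43, AC023055.1 and ZBED6 also overlapped other genes, with summed ratios of 1.70, 1.15 and 1.12. ZC3H11A, which overlaps ZBED6, had 219 CPM and a ratio of 1.21 by itself. Adding a larger and steadier gene narrows the ratio of a sum whether or not the genes share reads.

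In the second kind no same-strand partner offset the difference. These were CLDN2 and CLDN4, given above, and ZNF621, a zinc finger gene at 38, 35.8 and 1.06 CPM, TRIM59, a ubiquitin ligase, at 61.8, 1.82 and 61.6, SPIN1, a histone reader, at 169, 6.74 and 18, and CBL, a ubiquitin ligase of receptor kinases, at 29.1, 1.82 and 39.5 CPM. ZNF621 was low in untreated 3, TRIM59 and CBL in untreated 2, and SPIN1 was high in untreated 1. PTP4A1, a phosphatase, and AL135905.2, which overlaps it, lie outside the 12 and were picked after their values were seen. PTP4A1 had 109.8, 9.56 and 127 CPM and AL135905.2 9.68, 98 and 10.3 CPM, and their sums were 119.5, 108 and 137 CPM.

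Over all 151 genes above 4-fold, 48 (31.8%) overlapped another gene with counts, against 14.7% of all genes at 10 CPM or more. Summing each with its partners brought 28 of the 48 within 2-fold and 25 within 1.5-fold. A larger and steadier partner narrows the ratio in any case, and no sums with other genes were made for comparison. For the other 103 of the 151, no partner with counts was found on the same strand or under the same name. Overlap on the opposite strand was not counted, and partners without a matched exon length may have been missed. The cause of the spread of these 103 genes was not tested.

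**Figure D5:**
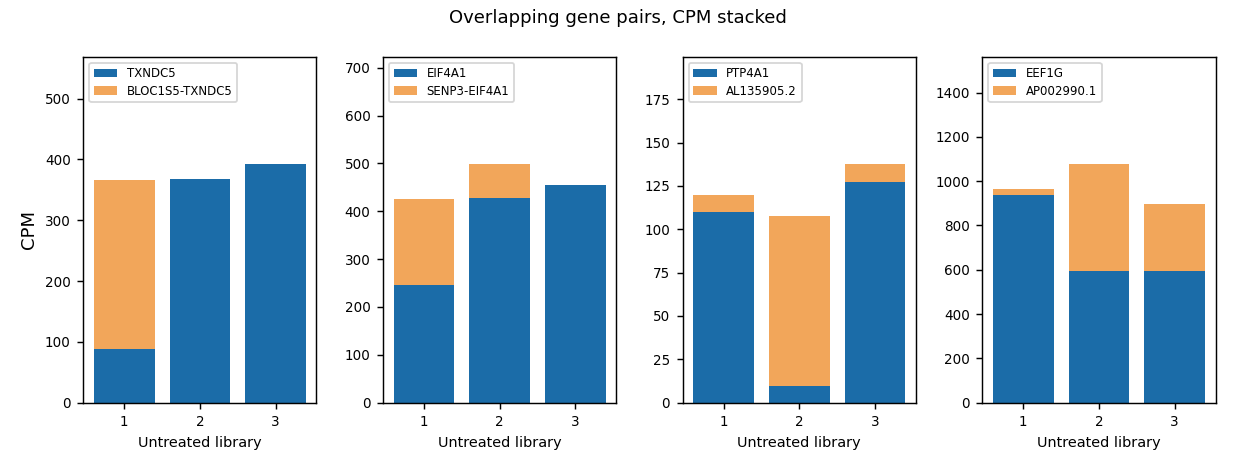
CPM of 4 pairs of overlapping genes in the 3 untreated libraries, stacked so that the bar height is the sum of the pair. The split within a pair differs between libraries, as for BLOC1S5-TXNDC5 at 277 CPM in untreated 1 and 0 in both others, while the heights stay close.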

How the data were processed

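The authors deposited 1 table of raw counts per library, whole reads per Ensembl gene. Per the submitters' processing notes, featureCounts and the GRCh38 build were used, and DESeq2 for their comparisons. Versions, aligner, annotation release, strand and the treatment of multi-mapped reads are not given in the sources used here. Counts of the 3 untreated libraries were analysed as deposited, and the labels' 9 libraries served only to set edgeR 4.0.16 TMM factors (16159 genes after its expression filter). CPM are counts over the scaled library size. TPM used exon lengths of GENCODE 29, matched by gene ID for 58496 of 60683 genes, and the others held 0.0415% of counts. A gene counted as present at a mean of 1 CPM. For ratios between libraries, a library under 3 counts was set to 3.

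No test was run, since 1 group is described. The edgeR estimate of the biological coefficient of variation and the ratio of libraries were tested on simulated or constructed data. Genes named were the 15 highest protein-coding by CPM and by TPM, the 5 highest non-coding, up to 5 highest per list and listed members at 0 that define a class, the 12 widest and 5 steadiest, and a fixed set of lineage, receptor and transporter genes. Others were chosen for their role or after their values were seen. The lists, 44 with 1080 genes of which 1078 matched, and the genes to name were chosen with earlier results of these data known. Promoters came from RefSeq on GRCh38.p14 for 11170 of 19970 protein-coding genes, those with 1 listed start. Some genes that the naming rule covers are not reported here.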

Additional observations from a re-analysis of the deposited data

How the results depend on the processing

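Scaling by TMM over the 3 untreated libraries, by RLE over 9 libraries or by library size only moved none of the counts of genes by level, the lists' counts of present genes or the shares of genes over 2-fold and 4-fold by more than 1.5 times. The percentage of genes over 2-fold between libraries, 7.12%, was 10.7% at a mean of at least 1 CPM and 4.43% at 100 CPM or more. With 1 library left out in turn, which leaves fewer libraries to differ, it was 3.59% to 4.50%. Over 4-fold, 1.70% became 2.61% and 0.678% at those levels, and 0.879% to 1.09% with 1 library left out. Summing overlapping genes, an alternative added after the data were seen, gave 6.47% over 2-fold and 1.31% over 4-fold. Without mitochondrially encoded genes in the total, the top 1, 10, 100 and 1000 genes held 0.920%, 5.01%, 19.2% and 53.1% of counts in place of 1.71%, 10.0%, 25.2% and 57.1%. Ordering by TPM kept 9 of the 15 genes highest by CPM. At 1 TPM in place of 1 CPM, 44 of 154 lineage factors and 11 of 24 kidney tubule markers were present, and 5 of 20 colorectal markers under every alternative run. No paired analysis was possible because no groups were compared.

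The depth limits statements on genes near 0 to levels above 0.159 to 0.176 CPM per library. Whether the mapping or counting of reads lowered any gene near 0 was not tested. Exon lengths include rarely used exons, so TPM understates genes with many of them.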
